A study of Mus musculus with 32 samples.

Results

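The TAM receptors Axl, Mertk and Tyro3, their ligands Gas6 and Pros1, and 4 further genes of apoptotic-cell uptake, Timd4, Mfge8, Elmo1 and Dock2, were followed in microglia of rTg4510 and WT mice. These 9 genes were chosen by name for their roles, with earlier results of these data known. A single row was found for each among the 18588 genes in the deposited table. All 9 rows were used without a filter on low values. rTg4510 mice carry a pair of transgenes, human 4-repeat tau with the P301L mutation behind a tetracycline operon-responsive element and the activator tTA behind the CaMKIIα promoter, which is active in forebrain neurons. WT mice were littermates with neither transgene, so effects of tau, of tTA and of their insertion cannot be told apart. All animals were female, and both genotypes were sampled at 2, 4, 6 and 8 months of age.

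For each library the forebrains of 8 to 10 animals were pooled and CD11b-positive cells were isolated with antibody-coated beads, so replicates are pools and the spread between single animals was not measured. Of 32 libraries, 28 were used, which left n = 4 for either genotype at 2 and 6 months of age and n = 3 at 4 and 8 months of age. The other 4 had failed RNAseq QC and had been set aside by the authors (WT and rTg4510 replicate 3 of 4 months, WT and rTg4510 replicate 4 of 8 months). Of the 36 member values in these 4 libraries, 21 lay outside the range of the kept libraries of the same group: Gas6 was below the kept range and Elmo1 above it in all 4. Values are log2 gene signals with a median of 5.63 in every library. They are not stated to be per length, so levels are compared between libraries and never between genes. The paper gives an approximate number of reads that holds for every sample. Read totals of single libraries are not given, so differences in depth between them are unknown. The lowest signal of a kept library was 1.23 to 1.92. In RNA of pooled cells, fewer cells of a type and less RNA per cell cannot be told apart.

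Phosphatidylserine, a lipid that healthy cells keep on the inner face of the plasma membrane, is exposed by dying cells and marks them for uptake. Gas6 and protein S, the product of Pros1, are secreted proteins that bind phosphatidylserine at one end and a TAM receptor tyrosine kinase at the other. Protein S activates Mertk and Tyro3, and Gas6 activates all TAM receptors. Tim-4, the product of Timd4, binds phosphatidylserine directly, and Mfg-e8 links it to integrins. Inside the engulfing cell, Elmo1 acts with a Dock protein to activate the GTPase Rac, which remodels actin around the target. Mertk is prominent in resting microglia, whereas Axl is known to rise in reactive microglia.

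A gene was called differentially expressed (DEG) when its FDR over all 18588 genes was under 0.05 and its change exceeded 1.5 fold, in a limma linear model over the 28 libraries. At 2 months of age Axl was the only DEG among the 9 members, beside 1.98% of all genes. At 4 months 4 members were called, Axl and Mfge8 up-regulated and Timd4 and Elmo1 down-regulated in rTg4510 microglia, beside 13.8% of all genes. At 6 months Axl was up-regulated and Elmo1 and Tyro3 were down-regulated, beside 19.8% of all genes. At 8 months Axl was up-regulated and Elmo1 and Timd4 were down-regulated, beside 15.9% of all genes. Under the FDR alone, 2, 6, 7 and 6 members passed at the 4 ages, beside 6.03%, 23.2%, 34.1% and 25.7% of all genes. The median log2 fold change of the 9 members was -0.08, -0.29, -0.31 and -0.30, and that of all genes 0.01, -0.04, -0.04 and -0.01. Neither Gas6 nor Pros1, the ligands, was a DEG at any age.

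**Figure D1:**
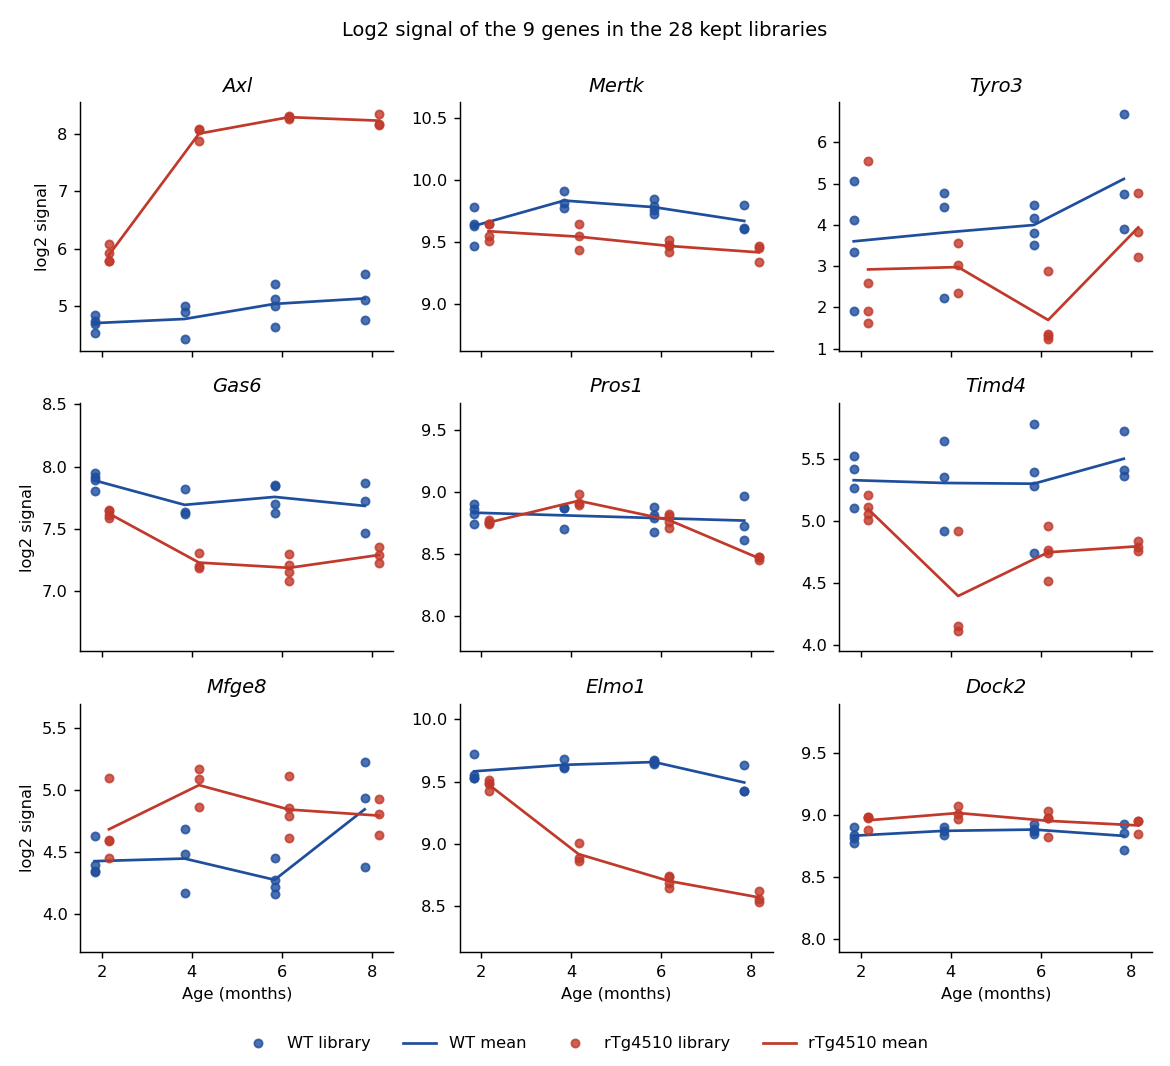
Log2 signal (y axis) of each of the 9 members in each kept library, by age in months (x axis) and genotype, with a point per library and a line through the group means (n = 3 or 4), each panel on its own axis range. Axl lies between 7.87 and 8.35 in the 10 rTg4510 libraries of 4, 6 and 8 months and between 4.42 and 5.55 in the 14 WT libraries, whereas Elmo1 lies between 8.53 and 9.01 in these rTg4510 libraries and between 9.42 and 9.72 in WT.

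The RefSeq sequences before the start sites of Axl, Timd4 and Elmo1 are shown because these members were called at more than 1 age. Each run holds the 250 bases before a transcript start, 5′ to 3′ on the strand of the gene, in GRCm38.p6, with motif matches in capitals. A set of 6 motifs was searched on both strands, which in all 32851 windows of this length had matches in 6.75% (AP-1, TGANTCA), 10.6% (PU.1, GAGGAAG), 6.02% (E-box, CACGTG), 7.02% (STAT, TTCNNNGAA), 32.7% (Sp1, GGGCGG) and 33.8% (CCAAT). A match is a run of letters and not a measured binding site.
Axl, chr7:25788734-25788983, minus strand: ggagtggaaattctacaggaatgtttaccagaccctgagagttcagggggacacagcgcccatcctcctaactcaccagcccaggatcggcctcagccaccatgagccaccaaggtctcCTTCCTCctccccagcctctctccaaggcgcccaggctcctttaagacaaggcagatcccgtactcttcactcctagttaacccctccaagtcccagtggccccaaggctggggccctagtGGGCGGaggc
Timd4, chr11:46810549-46810798, plus strand: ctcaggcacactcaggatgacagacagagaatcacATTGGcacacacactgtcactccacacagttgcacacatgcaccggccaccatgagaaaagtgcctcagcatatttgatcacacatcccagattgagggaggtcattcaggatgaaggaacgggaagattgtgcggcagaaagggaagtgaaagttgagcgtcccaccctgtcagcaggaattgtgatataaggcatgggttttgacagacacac
Elmo1, first start, chr13:20090257-20090506, plus strand: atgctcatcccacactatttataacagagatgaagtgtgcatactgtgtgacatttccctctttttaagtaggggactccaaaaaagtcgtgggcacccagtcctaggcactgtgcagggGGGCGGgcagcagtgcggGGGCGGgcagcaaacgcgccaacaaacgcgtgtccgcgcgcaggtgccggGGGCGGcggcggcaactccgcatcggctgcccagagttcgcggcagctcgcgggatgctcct
Elmo1, second start, chr13:20472740-20472989, plus strand: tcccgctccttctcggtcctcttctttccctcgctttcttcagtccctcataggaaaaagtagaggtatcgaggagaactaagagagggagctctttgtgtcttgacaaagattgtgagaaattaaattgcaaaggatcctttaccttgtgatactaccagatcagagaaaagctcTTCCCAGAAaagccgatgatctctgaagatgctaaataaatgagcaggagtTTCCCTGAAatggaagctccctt

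The windows of Axl and Timd4 reach into the gene spans, because another RefSeq model of each starts further upstream. The Axl window holds 1 PU.1 match, 131 bases before the start, and 1 Sp1 match, 10 bases before it. The Timd4 window holds 1 CCAAT match. The Elmo1 windows differ, with 3 Sp1 matches before the first start and 2 STAT matches before the second. AP-1 and E-box letters were found in none of the 10 windows of the 9 members. The signal of a gene combines its exons, so use of the Elmo1 starts was not separated.

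Axl (Entrez 26362, chr7:25756500-25788924) encodes a receptor that binds Gas6. Its log2 signal at 2 months was 4.69, 4.53, 4.85 and 4.74 in WT and 6.08, 5.78, 5.92 and 5.78 in rTg4510 microglia. The groups were apart by more than the range of either. The difference was 1.19 (SE 0.156, FDR 7.79e-05), or 2.28-fold.

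At 4 months Axl read 4.90, 4.42 and 5.01 in WT and 8.08, 7.87 and 8.06 in rTg4510 libraries, a 9.37-fold difference (log2 3.23, SE 0.18, FDR 4.68e-11). At 6 months it read 5.39, 4.64, 5.13 and 5.0 in WT and 8.29, 8.30, 8.30 and 8.27 in rTg4510, a 9.52-fold difference (log2 3.25, SE 0.156, FDR 1.89e-12). At 8 months it read 5.10, 5.55 and 4.75 in WT and 8.17, 8.35 and 8.16 in rTg4510, an 8.55-fold difference (log2 3.10, SE 0.18, FDR 7.21e-11). All 10 rTg4510 libraries of these ages lay above every WT library, and above every rTg4510 library of 2 months. Within the groups, the rTg4510 libraries of 6 months spread least (SD 0.0170, n = 4) and the WT libraries of 8 months most (SD 0.402, n = 3).

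Mertk (Entrez 17289, chr2:128698915-128803162) is the receptor through which macrophages ingest bound apoptotic cells. At 2 months the genotypes overlapped, with 9.47, 9.78, 9.62 and 9.64 in WT and 9.55, 9.64, 9.50 and 9.64 in rTg4510 libraries. The difference was -0.04 (95% interval -0.17 to 0.08, FDR 0.817). At the later ages every rTg4510 library lay below the WT libraries of its age, by amounts under 1.5 fold.

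At 4 months Mertk read 9.77, 9.81 and 9.91 in WT and 9.64, 9.44 and 9.54 in rTg4510, a difference of -0.29 (SE 0.0683, FDR 0.0031). At 6 months it read 9.84, 9.76, 9.72 and 9.79 in WT and 9.51, 9.46, 9.42 and 9.47 in rTg4510, a difference of -0.31 (SE 0.0592, FDR 0.000274). At 8 months it read 9.60, 9.61 and 9.79 in WT and 9.44, 9.34 and 9.46 in rTg4510, a difference of -0.25 (SE 0.0683, FDR 0.0083). Mertk passed the FDR at 3 ages without being a DEG. At 8 months it no longer passed without rTg4510 replicate 2 (FDR 0.0524) or without WT replicate 3 (FDR 0.0647). With only the libraries of an age fitted, it failed at 4 months (FDR 0.0887) and 8 months (FDR 0.123). Under quantile normalization the Mertk differences at 4, 6 and 8 months were larger, at -0.51, -0.55 and -0.48, and still under 1.5 fold.

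Tyro3 (Entrez 22174, chr2:119797740-119818104), the TAM receptor best known from neurons, was near the lowest signals of the table and varied most of the members. Its residual SD of 1.17 was at percentile 99.3 of all genes. Signals at 2 months were 1.91, 5.05, 4.11 and 3.33 in WT and 1.92, 5.55, 2.60 and 1.62 in rTg4510 (difference -0.68, FDR 0.781). Signals at 4 months were 2.24, 4.43 and 4.78 in WT and 3.55, 2.35 and 3.03 in rTg4510 (difference -0.84, FDR 0.587). The genotypes overlapped at both ages.

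At 6 months Tyro3 read 4.48, 4.18, 3.81 and 3.52 in WT and 2.88, 1.23, 1.36 and 1.31 in rTg4510, without overlap (FDR 0.0359). In 3 of these rTg4510 libraries it was at the lowest value of the library, and in the fourth 2.00 counts above it. A count is the unit inferred from the steps of low values, and was not always a whole number. With 3 counts per rTg4510 library as the floor, the WT mean of Tyro3 at 6 months was 2.03-fold above it, without an allowance for sampling error. The call was lost (FDR 0.0550 to 0.0847) in 6 of the 28 fits that left out a library, those without WT replicate 1, 2 or 3 or rTg4510 replicate 2, 3 or 4 of 6 months. Signals at 8 months were 6.70, 4.74 and 3.90 in WT and 4.77, 3.22 and 3.82 in rTg4510 (difference -1.17, FDR 0.409). Over all ages Tyro3 lay within 3 counts of the lowest value in 3 of 14 WT and 9 of 14 rTg4510 libraries.

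Gas6 (Entrez 14456, chr8:13465374-13494535), the ligand of all 3 receptors, was lower in every rTg4510 library than in every WT library of its age. It passed the FDR at all 4 ages, but its change stayed under 1.5 fold. At 2 months it read 7.91, 7.80, 7.95 and 7.89 in WT and 7.61, 7.65, 7.65 and 7.58 in rTg4510 (difference -0.27, SE 0.0719, FDR 0.0280). That FDR rose to between 0.0520 and 0.0883 in 6 of the 28 fits that left out a library, those without replicate 1, 3 or 4 of either genotype at 2 months. It was 0.0742 with the replicate block and 0.926 with all 32 libraries. At 4 months it read 7.82, 7.63 and 7.62 in WT and 7.20, 7.30 and 7.18 in rTg4510 (difference -0.47, SE 0.083, FDR 0.000222).

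The largest Gas6 difference, -0.57 (SE 0.0719, FDR 1.81e-06), or 1.49-fold lower, was at 6 months, with 7.62, 7.70, 7.85 and 7.85 in WT and 7.21, 7.30, 7.07 and 7.15 in rTg4510. At 8 months Gas6 read 7.46, 7.87 and 7.72 in WT and 7.22, 7.29 and 7.35 in rTg4510 (difference -0.40, SE 0.083, FDR 0.000999). That FDR was 0.138 when only the libraries of 8 months were fitted and 0.16 with all 32 libraries. The 10 rTg4510 libraries of 4 months and later lay between 7.07 and 7.35, below the lowest of the 14 WT libraries at 7.46.

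Pros1 (Entrez 19128, chr16:62854307-62929346) encodes protein S, which is also an anticoagulant cofactor in blood. It was lower in rTg4510 microglia at 8 months under the FDR, with 8.73, 8.61 and 8.96 in WT and 8.47, 8.45 and 8.48 in rTg4510. The difference of -0.30 (SE 0.0662, FDR 0.00151), or 1.23-fold, did not make it a DEG, and did not pass when only the libraries of 8 months were fitted (FDR 0.163). Signals at 2 months were 8.74, 8.86, 8.90 and 8.82 in WT and 8.75, 8.75, 8.74 and 8.77 in rTg4510 (difference -0.08, 95% interval -0.20 to 0.04).

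At 4 months Pros1 read 8.87, 8.87 and 8.70 in WT and 8.89, 8.98 and 8.91 in rTg4510 (difference 0.12, 95% interval -0.02 to 0.26, FDR 0.226). The groups did not overlap at that age, though the lowest rTg4510 library lay close to the highest WT library. Signals at 6 months were 8.88, 8.81, 8.68 and 8.79 in WT and 8.71, 8.76, 8.82 and 8.80 in rTg4510 (difference -0.02, 95% interval -0.13 to 0.10). Other settings changed both ages, since Pros1 passed as higher at 4 months with all 32 libraries (0.31, FDR 0.0154) and as lower at 6 months under quantile normalization (-0.18, FDR 0.0183), where the value at 4 months was -0.03.

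Timd4 (Entrez 276891, chr11:46810786-46844333) is best known from resident macrophages, which use Tim-4 to tether apoptotic cells. It was a DEG at 4 and 8 months, down-regulated. At 2 months Timd4 read 5.53, 5.42, 5.26 and 5.10 in WT and 5.11, 5.01, 5.06 and 5.21 in rTg4510, with overlap (difference -0.23, 95% interval -0.64 to 0.18, FDR 0.65). At 4 months Timd4 read 5.64, 5.35 and 4.92 in WT and 4.11, 4.92 and 4.15 in rTg4510, a 1.88-fold decrease (log2 -0.91, SE 0.226, FDR 0.00488). WT replicate 4 and rTg4510 replicate 2 of that age were nearly equal.

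At 6 months Timd4 read 5.28, 4.74, 5.78 and 5.40 in WT and 4.52, 4.74, 4.77 and 4.96 in rTg4510. The groups overlapped through WT replicate 2, and the 1.47-fold difference (log2 -0.55, SE 0.196, FDR 0.0338) was not a DEG. It was one without WT replicate 2 (-0.74, FDR 0.00445) and without rTg4510 replicate 4 (-0.62, FDR 0.0311), and the FDR was 0.0585 to 0.134 without any one of WT replicates 1, 3 and 4 and rTg4510 replicates 1, 2 and 3. The FDR was 0.111 with all 32 libraries and 0.135 with only the libraries of 6 months. At 8 months Timd4 read 5.37, 5.73 and 5.41 in WT and 4.76, 4.79 and 4.84 in rTg4510, a 1.63-fold decrease (log2 -0.71, SE 0.226, FDR 0.0251). The call at 8 months was lost without rTg4510 replicate 1, rTg4510 replicate 2 or WT replicate 2 of that age (FDR 0.0635 to 0.103), whereas the call at 4 months was kept in all 28 fits that left out a library. The call at 4 months was lost when only the libraries of 4 months were fitted (FDR 0.183).

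Markers of border macrophages, which line the meninges and vessels and use Tim-4 and scavenger receptors, were measured beside Timd4. Their 10 markers (Mrc1, Cd163, Lyve1, Pf4, F13a1, Cd209f, Ms4a7, Cbr2, Siglec1 and Clec10a) were all measured, and none was at the lowest value of any library. As a percent of the mean of all WT libraries, their summed linear signal at 4 months was 76.7 to 134 in WT and 61.3 to 73.5 in rTg4510. At 2 months it was 96.2 to 108 and 75.2 to 95.5, at 6 months 76.7 to 110 and 65.2 to 84.0, and at 8 months 77.9 to 135 and 77.9 to 90.4. Clec10a was down-regulated at 4 months and Lyve1 and Cd209f at 6 months, so 0, 1, 2 and 0 of 10 markers were called at the 4 ages. The part of these cells in the Timd4 values was not tested.

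Mfge8 (Entrez 17304, chr7:79133768-79149060) was higher in rTg4510 microglia at 4 months and did not differ detectably at 8 months. Signals at 2 months were 4.34, 4.40, 4.63 and 4.35 in WT and 4.46, 4.59, 5.10 and 4.60 in rTg4510 (difference 0.26, 95% interval -0.08 to 0.60, FDR 0.491). Signals at 4 months were 4.49, 4.69 and 4.18 in WT and 5.09, 4.87 and 5.17 in rTg4510, a 1.51-fold increase (log2 0.59, SE 0.188, FDR 0.0264). Without WT replicate 1 or 4 or rTg4510 replicate 1 or 4 of 4 months it was not a DEG (0.45 to 0.61, FDR 0.0526 to 0.142).

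At 6 months Mfge8 read 4.28, 4.17, 4.22 and 4.45 in WT and 5.11, 4.62, 4.79 and 4.86 in rTg4510, without overlap, and the 1.48-fold difference (log2 0.57, SE 0.163, FDR 0.0101) fell short of 1.5 fold. Without rTg4510 replicate 2 (0.64, FDR 0.00784) or WT replicate 4 (0.62, FDR 0.0106) of that age Mfge8 was a DEG. Signals at 8 months were 5.23, 4.94 and 4.38 in WT and 4.93, 4.81 and 4.64 in rTg4510 (difference -0.05, 95% interval -0.44 to 0.34, FDR 0.882). WT replicates 1 and 2 of 8 months were above all other WT libraries. The test of a change in the genotype effect from 6 to 8 months called 0 members.

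Elmo1 (Entrez 140580, chr13:20090507-20608353) was down-regulated at 4, 6 and 8 months, and its libraries varied little (residual SD at percentile 0.608 of all genes). At 2 months it read 9.53, 9.72, 9.56 and 9.53 in WT and 9.49, 9.51, 9.43 and 9.48 in rTg4510. The groups did not overlap, and the difference of -0.11 (SE 0.0464, FDR 0.246) did not pass, though it did under quantile normalization (-0.22, FDR 0.00765). At 4 months it read 9.62, 9.68 and 9.61 in WT and 8.86, 9.01 and 8.88 in rTg4510, a 1.65-fold decrease (log2 -0.72, SE 0.0536, FDR 3.07e-09).

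At 6 months Elmo1 read 9.67, 9.65, 9.67 and 9.64 in WT and 8.73, 8.68, 8.74 and 8.64 in rTg4510, a 1.94-fold decrease (log2 -0.96, SE 0.0464, FDR 2.31e-12). At 8 months it read 9.42, 9.42 and 9.63 in WT and 8.53, 8.55 and 8.62 in rTg4510, a 1.90-fold decrease (log2 -0.93, SE 0.0536, FDR 7.09e-11). The 10 rTg4510 libraries of these ages all lay below the 14 WT libraries and below the rTg4510 libraries of 2 months.

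Dock2 (Entrez 94176, chr11:34226815-34783905) encodes the Dock protein of blood cells and microglia that binds Elmo1, and was not a DEG at any age. At 2 months Dock2 read 8.78, 8.90, 8.84 and 8.81 in WT and 8.99, 8.98, 8.88 and 8.99 in rTg4510 (difference 0.12, 95% interval 0.03 to 0.22, FDR 0.135). At 4 months Dock2 read 8.90, 8.84 and 8.87 in WT and 8.97, 9.01 and 9.07 in rTg4510, without overlap (difference 0.14, 95% interval 0.03 to 0.25, FDR 0.0541). Its FDR at 4 months was 0.0271 to 0.0487 in 5 of the 28 fits that left out a library of another age, and 0.0408 with the replicate block. These intervals exclude a 1.5-fold change in either direction.

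At 6 months Dock2 read 8.93, 8.85, 8.87 and 8.89 in WT and 8.98, 8.98, 8.82 and 9.04 in rTg4510 (difference 0.07, 95% interval -0.02 to 0.17). At 8 months Dock2 read 8.72, 8.85 and 8.93 in WT and 8.85, 8.95 and 8.95 in rTg4510 (difference 0.08, 95% interval -0.03 to 0.19). The direction depended on the scaling, and under quantile normalization the Dock2 differences at 2, 4, 6 and 8 months were 0.04, 0.00067, -0.10 and -0.08 (FDR 0.708, 0.996, 0.0829 and 0.25). Insyn2b lies within the Dock2 gene, use of strand by the authors is not stated, and reads of these genes could then not be told apart. The Insyn2b log2 fold change was 0.28, -0.14, -0.34 and -0.22 at the 4 ages, with no DEG.

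**Figure D2:**
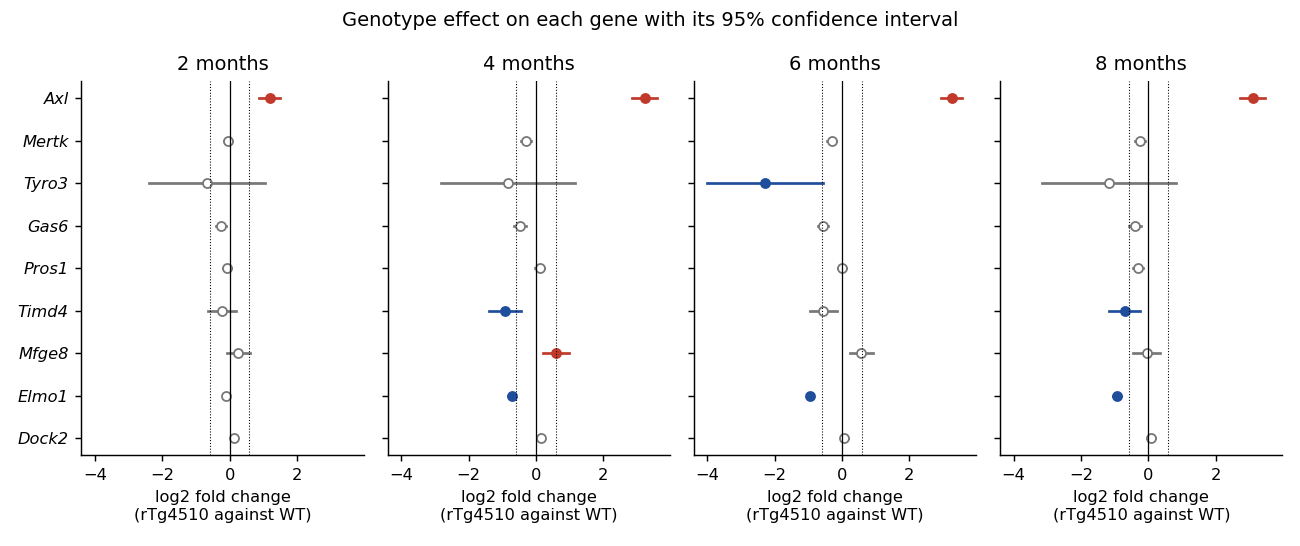
Log2 fold change of rTg4510 against WT (x axis) for each member (y axis), 1 panel per age, with 95% intervals from the linear model, filled points for DEGs and dotted lines at 1.5 fold. Axl stays at 3.10 to 3.25 from 4 months on, after 1.19 at 2 months, and Elmo1 goes from -0.11 at 2 months to -0.96 at 6 months. The fitted Tyro3 value at 6 months rests on libraries near the lowest signals and is no bound.

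Without overlap between genotypes were 3, 8, 6 and 6 of the 9 members at 2, 4, 6 and 8 months, where 11%, 36.6%, 32.8% and 36.7% of all genes had groups that did not overlap. Axl, Gas6 and Elmo1 were apart at all 4 ages, Axl in 1 direction and the other two in the opposite one. Tyro3 was the only member whose groups overlapped at 4 months.

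Whether the genotype effect changed with age was tested as the difference between the effects at 2 ages, over all genes. From 2 to 4 months it changed for Axl, by 2.04 (SE 0.238, FDR 1.22e-05), and for Elmo1, by -0.61 (SE 0.0709, FDR 1.13e-05), 2 of 9 members beside 4.66% of all genes. From 2 to 8 months it changed for the same members, Axl by 1.91 (SE 0.238, FDR 2.08e-05) and Elmo1 by -0.82 (SE 0.0709, FDR 2.95e-07), beside 6.7% of all genes. These tests share the libraries of 2 months. From 4 to 6 months and from 6 to 8 months 0 of 9 members were called by limma, beside 0.156% and 0% of all genes, with 1 and 2 members at an unadjusted p under 0.05, beside 8.15% and 4.52% of all genes. Without rTg4510 replicate 1 of 4 months, the Elmo1 change from 2 to 4 months was -0.58, just under 1.5 fold.

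Within rTg4510 microglia, Axl rose from 2 to 4 months by 2.11 (SE 0.168, FDR 2.5e-08) and Timd4 fell by 0.70 (SE 0.212, FDR 0.0280), 2 members beside 6.39% of all genes. The Timd4 call was lost without rTg4510 replicate 1 or 4 of 2 months or rTg4510 replicate 1 or 4 of 4 months (FDR 0.0556 to 0.141). Elmo1 and Gas6 were lower at 4 than at 2 months under the FDR but by less than 1.5 fold, with changes of -0.56 (SE 0.0502, FDR 1.24e-07) and -0.40 (SE 0.0776, FDR 0.00131). From 4 to 6 months 0 members were called by limma, beside 0.818% of all genes, with 2 at an unadjusted p under 0.05, beside 14% of all genes, and Elmo1 changed by -0.22 on the log2 scale (FDR 0.0279). From 6 to 8 months 0 members were called, beside 0.00538% of all genes, with 3 at an unadjusted p under 0.05, beside 14.4%. From 2 to 8 months Axl rose by 2.34 (SE 0.168, FDR 2.81e-09) and Elmo1 fell by 0.91 (SE 0.0502, FDR 6.73e-11), beside 10.5% of all genes. Gas6 (-0.33, FDR 0.0033) and Pros1 (-0.29, FDR 0.0018) passed the FDR in that comparison without reaching 1.5 fold.

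Within WT microglia 0 of 9 members were called by limma in any comparison of ages, with 2, 0, 2 and 3 at an unadjusted p under 0.05 for 4 against 2, 6 against 4, 8 against 6 and 8 against 2 months. Of all genes, 0.0484%, 0.00538%, 0% and 1.27% were called in these comparisons, and 10.2%, 8.65%, 9.78% and 19.2% had an unadjusted p under 0.05. Axl was at 0.43 (FDR 0.159) and Mfge8 at 0.42 (FDR 0.194) for 8 against 2 months. Without WT replicate 3 of 8 months both passed, Axl at 0.62 (FDR 0.0438) and Mfge8 at 0.65 (FDR 0.035).

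Other genes of the pathway were taken from 6 lists written from textbook roles, with earlier results of these data known. Of their 86 genes 80 were measured. At 2 months 0 of 80 were called by limma, beside 1.98% of all genes, with 7 under the FDR alone, beside 6.03%. At 4, 6 and 8 months 11, 13 and 15 were called, or 13.8%, 16.2% and 18.8% of the 80, near the 13.8%, 19.8% and 15.9% of all genes. Of these, 7, 8 and 9 were up-regulated and 4, 5 and 6 down-regulated. Under the FDR alone 26, 33 and 36 of the 80 passed at these ages, beside 23.2%, 34.1% and 25.7% of all genes. Over all ages 16 genes were called at 1 age or more, 9 up-regulated and 7 down-regulated, and 64 never.

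Among 17 receptors and bridging proteins for phosphatidylserine, 2, 3 and 4 were up-regulated at 4, 6 and 8 months and 1 was down-regulated at each. Anxa5, which encodes the phosphatidylserine-binding protein annexin A5, was higher by 1.62, 2.08 and 1.90 on the log2 scale (FDR 1.27e-08, 1.98e-11 and 1.24e-09). Cd300lb, a CD300 family receptor for phosphatidylserine, was higher by 1.45, 2.23 and 3.33 (FDR 0.0257, 0.000142 and 8.67e-06). Stab1, the receptor stabilin-1 of macrophages, was down-regulated, with log2 fold changes of -0.73, -0.85 and -0.77 (FDR 0.000133, 1.92e-06 and 5.8e-05). Thbs1, the bridging protein thrombospondin-1, was called at 6 and 8 months (0.71 and 0.78) and Cd300lf at 8 months (0.75), both up-regulated.

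Among 20 engulfment signalling genes, 0, 1 and 1 were called at 4, 6 and 8 months, both down-regulated. These were Trio, a guanine nucleotide exchange factor of RhoG and Rac, at 6 months (-0.74, SE 0.0477, FDR 1.26e-10), and Arhgap12, a GTPase-activating protein, at 8 months (-0.62, SE 0.0849, FDR 8.44e-06). The members Elmo1 and Dock2 are not among these 20, which hold their relatives Elmo2, Elmo3, Dock1, Dock5 and Dock8. Of these relatives none was called at any age. Dock8 was lower under the FDR alone at 4, 6 and 8 months (-0.30, -0.35 and -0.30, FDR 0.000362, 5.7e-06 and 0.000275), and Dock1 was higher at 6 and 8 months (0.41 and 0.33, FDR 0.000403 and 0.00973).

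Among 12 genes of find-me and do-not-eat-me signals, 3 were up-regulated and 2 down-regulated at each of 4, 6 and 8 months. Siglecg, a receptor for the do-not-eat-me signal Cd24, was down-regulated, with log2 fold changes of -1.15, -2.07 and -2.10 (FDR 0.000128, 3.4e-09 and 4.11e-08). Pecam1, an adhesion molecule also known from endothelium, was down-regulated, with log2 fold changes of -1.35, -2.12 and -2.04 (FDR 1.76e-06, 2.01e-10 and 5.89e-09). It is also 1 of the 6 endothelial markers measured below, and the part of endothelial cells in its values was not tested. S1pr1, a receptor for sphingosine 1-phosphate, was higher by 1.35, 1.89 and 1.30 (FDR 0.000212, 2.72e-07 and 0.000274). Also up-regulated were P2ry2, a receptor for ATP released by dying cells (0.84, 1.60 and 1.61), and Lrpap1 (0.96, 0.82 and 0.75). The list holds Lrpap1 although it encodes a chaperone of Lrp1, the receptor for calreticulin, and not a find-me or do-not-eat-me signal.

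Of 10 scrambling genes, Plscr1 was up-regulated at 4, 6 and 8 months (1.19, 1.12 and 0.92) and Xkr9 was called lower at 8 months. Its 3 rTg4510 libraries of that age were within 3 counts of the lowest value. Its WT mean was 2.17-fold above a floor of 3 counts, without an allowance for sampling error. Of 12 genes for TAM processing and feedback, Vkorc1, which recycles vitamin K for the carboxylation that Gas6 and protein S need, was up-regulated by 1.02, 0.86 and 0.82 (FDR 3.88e-07, 3.09e-07 and 6.13e-06), and the other 11 were not called at any age. Of 9 nuclear receptor and factor genes, Maf, a transcription factor of resident macrophages, was down-regulated, with log2 fold changes of -0.73, -0.92 and -0.88 (FDR 0.000214, 1.26e-06 and 1.97e-05), and the other 8 were not called.

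**Figure D3:**
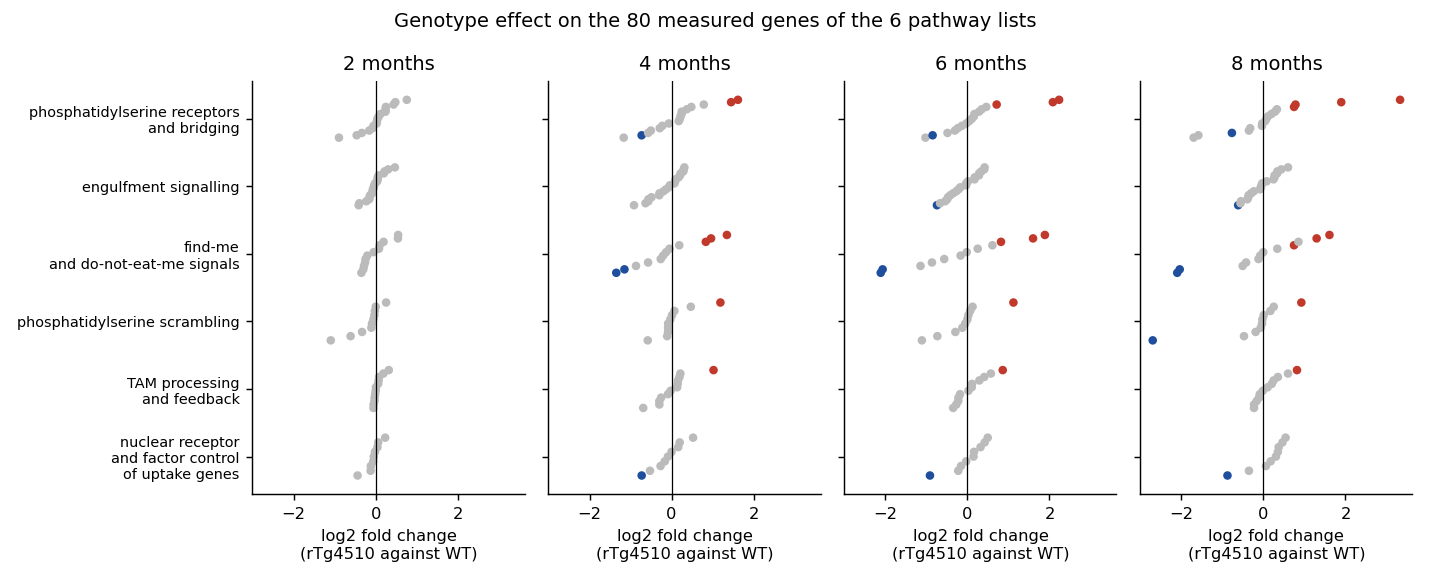
Log2 fold change of rTg4510 against WT (x axis) of each measured gene of the 6 pathway lists (y axis), 1 panel per age, with DEGs coloured by direction. At 8 months 9 of 80 genes were up-regulated and 6 down-regulated, and at 2 months none was called.

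For each member the 3 genes with the most similar pattern over the 28 libraries were sought by Pearson correlation among genes at or above the median signal. These libraries share genotype and age, so the values are a description. Ctse, Cd63-ps and Itgax were most like Axl, with r of 0.995, 0.991 and 0.990, and Cd63-ps is a pseudogene whose reads could come from Cd63. For Elmo1 they were Med12l, Srgap2 and Bank1 (0.986, 0.985 and 0.984). For Gas6 they were Adra2a, Mtss1 and Ighg2b (0.925, 0.923 and 0.917), and for Mertk Zc3h11a, Abcc5 and Herc2 (0.925, 0.911 and 0.905).

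The other members had less close neighbours. For Timd4 they were Clec4a2, Lpar6 and the border macrophage marker Mrc1 (0.820, 0.800 and 0.791). For Pros1 they were Ash2l, Rasal3 and Psmd6 (0.812, 0.811 and 0.808), and for Dock2 Wnk1, Becn1 and Caprin1 (0.813, 0.803 and 0.793). For Mfge8 they were Slc2a1, Prnp and Prxl2a (0.745, 0.744 and 0.706). For Tyro3 they were Tmod2, Map1a and Tmem88b (0.734, 0.729 and 0.705).

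The label of microglia was checked with 7 markers (Cx3cr1, P2ry12, Tmem119, Csf1r, Aif1, Itgam and Sall1), none of which was at the lowest value of any library. Their summed linear signal, as a percent of the WT mean, was 80.7 to 115 in WT and 59.8 to 95.6 in rTg4510 libraries, and 65.5 or less in all 3 rTg4510 libraries of 8 months. Of these markers 0, 2, 3 and 2 of 7 were down-regulated at 2, 4, 6 and 8 months. The part of this lower marker signal in the lower values of Mertk, Gas6, Pros1 and Elmo1 was not tested.

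Astrocytes and neurons express Mertk, Gas6, Mfge8 or Tyro3 as well. The 8 astrocyte markers summed to 79.2 to 218% of the WT mean in WT libraries of 4 months and later and to 49.7 to 83.4% in rTg4510 libraries, with none at the lowest value of a library. At 6 and 8 months Gfap was up-regulated, while 2 and 3 of the 8 were down-regulated. The 3 neuron markers analysed here (Snap25, Syt1 and Map2, of 8 listed) summed to 48.6 to 268% and 24.2 to 99.4%, and Syt1 was at the lowest value in 1 of 14 WT and 4 of 14 rTg4510 libraries. Their part in these members' values was not tested.

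WT replicate 1 of 8 months stood apart, with 218% of the WT mean for astrocyte markers, 268% for neuron markers and 441% for 7 oligodendrocyte markers. It also held the highest Tyro3 and Mfge8 signals of all kept libraries. Without it, the genotype difference at 8 months was -0.38 (FDR 0.835) for Tyro3 and 0.14 (FDR 0.673) for Mfge8, and the 3 calls of that age, Axl at 3.08, Elmo1 at -0.96 and Timd4 at -0.77, were kept. The rTg4510 library of the same number and age was also apart from its group, with 217% of the WT mean for oligodendrocyte markers, beside 79.6% and 60.0%, 99.4% for neuron markers, 134% for pericyte and smooth muscle markers and 169% for lymphocyte markers. It held the highest Tyro3 and Mfge8 signals of the 3 kept rTg4510 libraries of 8 months. Without it, Tyro3 was at -1.59 (FDR 0.326), Mfge8 at -0.12 (FDR 0.748), Axl at 3.12 and Elmo1 at -0.91, and the Timd4 call was lost (-0.69, FDR 0.0640).

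Markers of the other cell types that CD11b capture could carry over were measured as well. Of 8 neutrophil and monocyte markers 0, 1, 6 and 5 were down-regulated at the 4 ages, and their sum at 4 months and later was 64.3 to 138% of the WT mean in WT and 24.8 to 68.3% in rTg4510 libraries. Of 6 endothelial markers, 1, 3 and 1 were down-regulated at 4, 6 and 8 months and 1 was up-regulated at each. Pecam1, counted in a pathway list above as well, was down-regulated at each of these ages, and alone at 4 and 8 months. Of 7 pericyte and smooth muscle markers 1 was up-regulated at each of 4, 6 and 8 months and 1 down-regulated at 8 months. Of 5 lymphocyte markers 1 was down-regulated at 4 months. None of the 7 oligodendrocyte or 4 choroid plexus and ependyma markers was called. The part of these cells in the values of the 9 members was not tested.

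**Figure D4:**
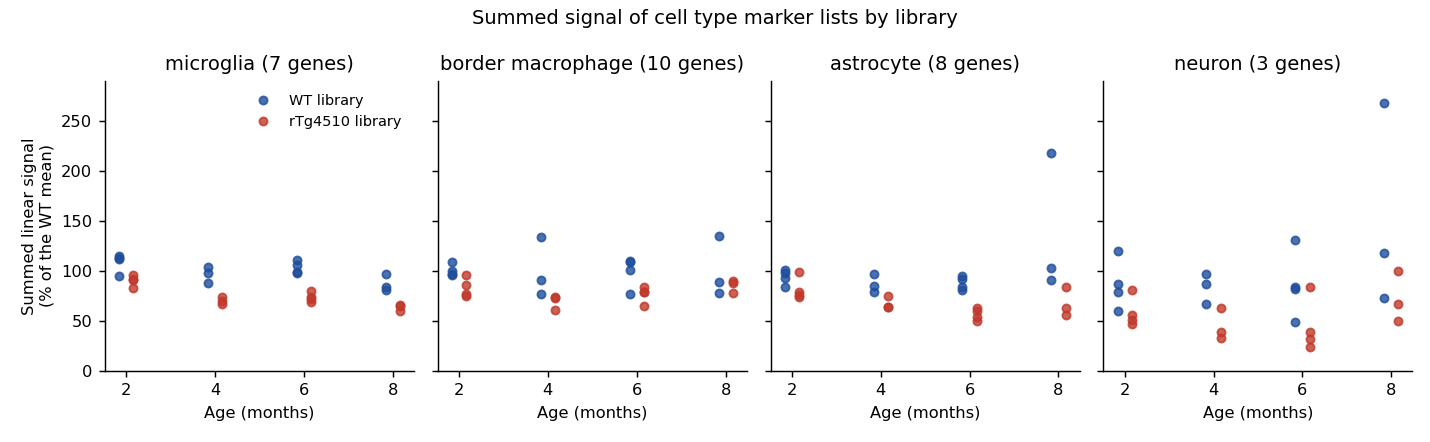
Summed linear signal of the marker lists of microglia, border macrophages, astrocytes and neurons in each kept library, as a percent of the mean of the WT libraries (y axis, from 0), by age in months (x axis) and genotype. The rTg4510 libraries of 6 months lie at 49.7 to 62.5 for astrocyte markers, below the WT libraries of that age at 80.5 to 94.9. Border macrophage markers lie lower in rTg4510 without overlap at 2 and 4 months and overlap between genotypes at 6 and 8 months.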

How the data were processed

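RNA of CD11b bead-isolated forebrain microglia was sequenced as 32 libraries (NuGEN Ovation V2), with genotype, age and replicate number taken from the labels. The deposited values are log2 gene signals. To make them, the authors added up exon reads over sequencing runs, dropped an exon where over 80% of samples had under 10 counts, fitted a robust linear model across exons to give 1 signal per gene, took log2 and normalized libraries to their medians. The build in the submitters' processing notes is GRCm38, and the aligner is not given in the sources used here. Signals of exons combined in this way need not follow read counts, and reads shared by near-identical or overlapping genes may be split or counted for either. Low values fall on discrete steps, log2(count + 1.5), from which counts above the lowest value of a library were inferred. Some inferred counts were not whole numbers, such as 4.5 and 1.5 for Tyro3 in rTg4510 replicates 1 and 2 of 4 months. A count therefore need not be a read. Columns of values left unused numbered 0.

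A linear model with the 8 group means was fitted to each of the 18588 genes over the 28 kept libraries with limma 3.58.1 (R 4.3.3), with unmoderated variances and 20 residual degrees of freedom. The Benjamini-Hochberg FDR was taken within each contrast, over all genes. The model was run on simulated data with planted changes and independent normal noise. Those data had no pairing and no floor of low values, so these features were not checked. Alternatives were all 32 libraries, the groups of a contrast alone, each library left out, a replicate block, moderated variances, quantile normalization, a pseudocount of 10, a filter at the 25th percentile, and the FDR alone. The number of libraries limits the precision.

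Same-numbered kept libraries of both genotypes were checked for shared deviations from their group means. The 4 libraries that had failed QC, which are same-numbered in both genotypes, were not part of this check. The correlations were 0.0649 to 0.167 at 2, -0.0999 to 0.124 at 4, 0.131 to 0.153 at 6 and 0.15 to 0.291 at 8 months. For unlike numbers they were -0.194 to 0.0816, -0.0709 to 0.154, -0.127 to 0.0913 and -0.259 to -0.0281. Only at 6 and 8 months were the same-numbered values all above the others, with a narrow overlap at 2 months. The numbers were taken to pair the libraries at 6 and 8 months only, on the values alone. The main fits did not use this pairing.

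The members, the 6 pathway lists and the 10 marker lists were chosen with earlier results of these data known. Named pathway genes were, per list, the 3 called at the most ages (ties by the largest change) and the called gene that changed most against the prevailing direction. Thbs1, Cd300lf, P2ry2, Lrpap1, Dock1, Dock8 and Insyn2b were named after their values were seen. The 6 listed pathway genes and the listed markers without values were not analysed here, and 1 further microglia marker is not reported here. Symbols, spans and promoter sequences came from RefSeq (GRCm38.p6), which named 95.9% of the genes, and all 9 members were matched. Motifs were searched with Python 3.11.15, and figures drawn with numpy 2.4.6, pandas 2.3.3 and matplotlib 3.10.9.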

Additional observations from a re-analysis of the deposited data

Results flagged for a closer look

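The genotype effect on Axl differed between ages by 2.04 from 2 to 4 months and by 1.91 from 2 to 8 months on the log2 scale, and that on Elmo1 by -0.61 and -0.82, in tests of the difference itself. These 4 tests share the libraries of 2 months.

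In 3 of 36 groups of 4 libraries a single library lay apart from the others by Dixon's criterion, which chance gives in about 1 of 20 groups. Tyro3 was 2.88 in rTg4510 replicate 1 of 6 months and 1.23 to 1.36 in the other 3 libraries. Those 3 were each at the lowest value of the library, so their narrow range is that of the floor. Elmo1 was 9.72 in WT replicate 2 of 2 months and 9.53 to 9.56 in the others. Dock2 was 8.88 in rTg4510 replicate 3 of 2 months and 8.98 to 8.99 in the others.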

How the results depend on the processing

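No called result changed direction, while some differences that were not called did. Those of Dock2 at 6 and 8 months and of Pros1 at 4 months turned from above to below 0 under quantile normalization. That of Mfge8 at 8 months was -0.05 in the main fit and 0.17 with all 32 libraries. The Axl calls at all 4 ages and the Elmo1 calls at 4, 6 and 8 months held under every alternative run. With the replicate block no member call changed, and 14 and 16 pathway genes were called at 6 and 8 months, against 13 and 15 without it. What the numbers mark at 2 and 4 months is unknown, and the block there moved the genes called from 368 to 376 and from 2564 to 2553.

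With only the groups of a contrast fitted, 2 members and 5 pathway genes were called at 4 months, where Timd4 (FDR 0.183) and Mfge8 (FDR 0.125) no longer passed and fewer libraries set the spread, and 1 member was called in rTg4510 from 2 to 4 months. With quantile normalization 1 pathway gene was called at 2 months, Tyro3 was lost at 6 months (-1.93, FDR 0.0879), and Gas6 at -0.64 and Mfge8 became DEGs at that age. With a pseudocount of 10, 1 member was called in rTg4510 from 2 to 4 months, and Mfge8 at 4 months (0.43), Tyro3 at 6 months (-0.95, FDR 0.135) and Timd4 at 8 months (-0.55) were lost, since it shrinks changes of low signals. With all 32 libraries Mfge8 was lost at 4 months (0.44, FDR 0.102), and the cause was not tested. The 25th-percentile filter left out Tyro3.

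With the FDR alone, 2, 7 and 6 members were called at 2, 6 and 8 months. Of the 80 pathway genes 7, 26, 33 and 36 passed at the 4 ages, beside 6.03%, 23.2%, 34.1% and 25.7% of all genes. In rTg4510 4, 1 and 4 members passed for 4 against 2, 6 against 4 and 8 against 2 months. The share of all genes that passed the FDR alone was not taken for these age comparisons, so these counts have no background beside them. Leaving out 1 library at a time gave 1, 3 to 4, 2 to 4 and 2 to 3 members and 0 to 1, 9 to 12, 13 to 15 and 13 to 15 pathway genes at the 4 ages, 1 to 2 and 2 members for the change of the genotype effect from 2 to 4 and from 2 to 8 months, 0 to 2 in WT for 8 against 2 months, and 1 to 3 and 2 in rTg4510 for 4 against 2 and 8 against 2 months. Gas6 at 6 months became a DEG without rTg4510 replicate 2 or WT replicate 1 or 2 of that age (-0.59 to -0.62).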
